A study of Mus musculus with 42 samples.

Results

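Lamina-associated domains (LADs) were compared between livers taken at circadian time CT24 and livers taken at CT0, 24 h earlier and at the same phase of the day. The comparison used 4 of the 14 lamin B1 (LMNB1) ChIP-seq libraries with LAD calls, 2 at each time point and 1 mouse per library. Its members are autosomal 100-kb bins, and a bin was counted as being in a LAD where at least 50 kb of it was covered. Of 24639 bins, 223 were in a LAD in both CT24 libraries and in neither CT0 library. In the opposite direction 61 bins were in a LAD in both CT0 libraries and in neither CT24 library. A further 3035 bins were in a LAD in all 4 libraries. Bins that are always in a LAD would be among them, as would bins with a rhythm of 24 h that are in a LAD at this phase. Rhythmic bins outside LADs at this phase would be in none of the 4. These sets are called the bins of CT24, the bins of CT0 and the shared bins here.

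The mice were wild-type C57Bl/6 animals without a transgene, kept under 12 h of light and 12 h of dark. All mice of the circadian time points were kept off chow for 24 h to entrain the clock. Non-synchronized (NS) mice, whose libraries are given beside the comparison, were killed at noon of the day before the fast. The CT0 mice were killed at the end of the fast, at lights on, and the CT24 mice 24 h later, having been refed ad libitum from CT0. The time elapsed and the change from fasting to feeding therefore cannot be told apart. The study's methods give male mice, although 1 field of the labels says female, and no age is given. LAD calls hold no expression values, so the tissue could not be checked by its markers.

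The nuclear lamina is a meshwork of A-type and B-type lamins that lines the inner nuclear membrane, and LADs are the long stretches of chromatin that touch it. They are mostly AT-rich, poor in genes and transcriptionally silent. In the liver, the core clock runs as a feedback loop in which CLOCK and BMAL1 (encoded by Arntl) drive the Per and Cry genes, whose products repress them in turn.

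Promoters of the longest genes in the longest runs of bins are shown as examples of the genes described with those runs, without receptor genes and genes with a Gm or Rik name. They are taken from RefSeq (GRCm38.p6, mm10) as the 250 bases before and 50 bases after the start of the gene, with every CG dinucleotide in capitals. Zfp808, a zinc finger gene, and Frmd3, which encodes a FERM domain protein, lie in bins of both CT24 libraries and neither CT0 library. Negr1, which encodes a neuronal cell adhesion molecule of the immunoglobulin family, and Acrv1, which encodes a protein of the sperm acrosome, lie in bins of both CT0 libraries and neither CT24 library. Pcdh9, a protocadherin gene, lies in the longest run shared by all 4.
Zfp808, chr13:62129640-62129939, plus strand: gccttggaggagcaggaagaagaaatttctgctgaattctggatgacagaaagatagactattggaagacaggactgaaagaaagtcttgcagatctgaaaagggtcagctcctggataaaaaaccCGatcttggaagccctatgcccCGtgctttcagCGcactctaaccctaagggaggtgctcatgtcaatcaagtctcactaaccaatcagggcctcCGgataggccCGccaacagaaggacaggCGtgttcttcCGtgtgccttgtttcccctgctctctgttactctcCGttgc
Frmd3, chr4:74013353-74013652, plus strand: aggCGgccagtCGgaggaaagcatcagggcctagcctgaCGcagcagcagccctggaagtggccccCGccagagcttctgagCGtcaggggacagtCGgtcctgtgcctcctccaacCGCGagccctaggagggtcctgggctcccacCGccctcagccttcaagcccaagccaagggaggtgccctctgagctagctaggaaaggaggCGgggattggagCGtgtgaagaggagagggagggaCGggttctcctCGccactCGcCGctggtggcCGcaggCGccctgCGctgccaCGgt
Negr1, chr3:156561544-156561843, plus strand: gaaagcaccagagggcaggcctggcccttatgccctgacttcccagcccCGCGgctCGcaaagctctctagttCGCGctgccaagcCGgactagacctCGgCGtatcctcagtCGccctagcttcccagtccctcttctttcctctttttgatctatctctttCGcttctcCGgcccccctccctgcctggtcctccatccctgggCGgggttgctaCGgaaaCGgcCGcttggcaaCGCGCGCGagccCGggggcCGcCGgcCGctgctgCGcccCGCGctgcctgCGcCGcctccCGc
Acrv1, chr9:36692970-36693269, plus strand: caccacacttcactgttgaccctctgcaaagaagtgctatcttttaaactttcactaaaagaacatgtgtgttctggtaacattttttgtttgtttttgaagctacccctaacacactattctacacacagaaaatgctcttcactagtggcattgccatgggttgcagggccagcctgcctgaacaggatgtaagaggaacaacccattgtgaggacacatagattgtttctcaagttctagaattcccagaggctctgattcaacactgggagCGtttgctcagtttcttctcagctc
Pcdh9, chr14:93890630-93890929, minus strand: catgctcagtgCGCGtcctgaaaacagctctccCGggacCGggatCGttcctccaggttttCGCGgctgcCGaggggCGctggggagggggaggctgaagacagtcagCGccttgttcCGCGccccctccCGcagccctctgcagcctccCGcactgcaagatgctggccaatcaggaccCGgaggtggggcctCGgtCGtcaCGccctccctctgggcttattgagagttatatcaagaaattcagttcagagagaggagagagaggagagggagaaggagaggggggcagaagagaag
The promoters hold 8, 19, 29, 1 and 18 CG dinucleotides in this order. The median over all promoters of a class was 3 CG dinucleotides in the bins of CT24, 1 in the bins of CT0 and 1 in the shared bins, so that Frmd3, Negr1 and Pcdh9 are not typical of theirs. CG-rich promoters, with at least 10 CG dinucleotides in 300 bases, made up 23 of 96 promoters (24.0%) in the bins of CT24, 4 of 12 (33.3%) in the bins of CT0 and 84 of 577 (14.6%) in the shared bins. Of all 15687 autosomal promoters matched by symbol, 60.2% were CG-rich.

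The 4 libraries differed more within CT0 than between the time points. CT0 replicate 1 held 109 autosomal LADs that covered 423.8 Mb, with a median size of 3.15 Mb. CT0 replicate 2 held 283 LADs that covered 573.7 Mb, with a median size of 1.24 Mb. CT24 replicate 1 held 184 LADs over 631.4 Mb and CT24 replicate 2 held 177 LADs over 518.1 Mb, with median sizes of 2.62 and 2.18 Mb. The CT24 values of each of these measures thus lay between the CT0 values or, for coverage, overlapped with them. LADs covered 499 ± 106 Mb at CT0 and 575 ± 80.0 Mb at CT24 (SD, n = 2). The difference of 76.0 Mb was smaller than the spread between the mice of CT0 (exact two-sided permutation test, p = 0.667). The number of LADs was 196 ± 123 at CT0 and 180.5 ± 4.95 at CT24 (SD, n = 2, exact two-sided permutation test, p = 1). The median LAD size was higher at CT24 by 0.27 on the log2 scale (exact two-sided permutation test, p = 1). With 2 mice against 2 the smallest p possible is 0.333, so that no difference could pass a threshold of 0.05. Without CT0 replicate 2 the difference in number turned from -15.5 to 71.5 LADs and that in log2 size to -0.40, and without CT0 replicate 1 the coverage differed by 1.075 Mb.

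Apart from a few LADs whose borders are off it, LAD borders lie on a grid of fixed steps. The step was 47 kb in CT0 replicate 1, 4 kb in CT0 replicate 2, 14 kb in CT24 replicate 1 and 18 kb in CT24 replicate 2. It thus moved with the library, and the library with the widest step had the fewest and longest LADs. Its part in the differences between libraries was not tested. The deposited names number the 4 libraries 1, 3, 1 and 2 in the same order, without saying what the number stands for.

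LADs overlapped no more between mice of a time point than between mice 24 h apart. Measured by the Jaccard index, which divides the shared LAD base pairs of a pair by all LAD base pairs of that pair, overlap was 0.516 for the CT0 pair and 0.704 for the CT24 pair. Between the time points it was 0.742 for CT0 replicate 2 and CT24 replicate 2 and 0.722 for CT0 replicate 2 and CT24 replicate 1. CT0 replicate 1 stood apart, with an index of 0.537 to CT24 replicate 1 and 0.508 to CT24 replicate 2. The mean index was 0.610 within and 0.627 between time points (difference -0.0172, exact one-sided permutation test over the 3 ways to pair the 4 libraries, p = 1, smallest possible p 0.333).

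Bins in a LAD at both time points far outnumbered bins of either time point alone. In all, 7662 bins were in a LAD in at least 1 of the 4 libraries, and the 3035 bins of all 4 made up 39.6% of these and 12.3% of all autosomal bins. The 223 bins of both CT24 libraries and neither CT0 library made up 0.905% of all bins, and the 61 bins of both CT0 libraries and neither CT24 library 0.248%. Of the 1132 bins held by exactly 2 libraries, 284 were held by the mice of 1 time point and 848 by mice of different time points. The combination of CT0 replicate 2 with CT24 replicate 1 alone held 347 bins, CT0 replicate 1 with CT24 replicate 1 held 280 and CT0 replicate 2 with CT24 replicate 2 held 196, whereas CT0 replicate 1 with CT24 replicate 2 held 25. Among the 1790 bins of exactly 3 libraries, 1400 were missing from CT0 replicate 1 alone. A further 1705 bins were in a LAD in a single library, 664 of them in CT24 replicate 1.

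**Figure D1:**
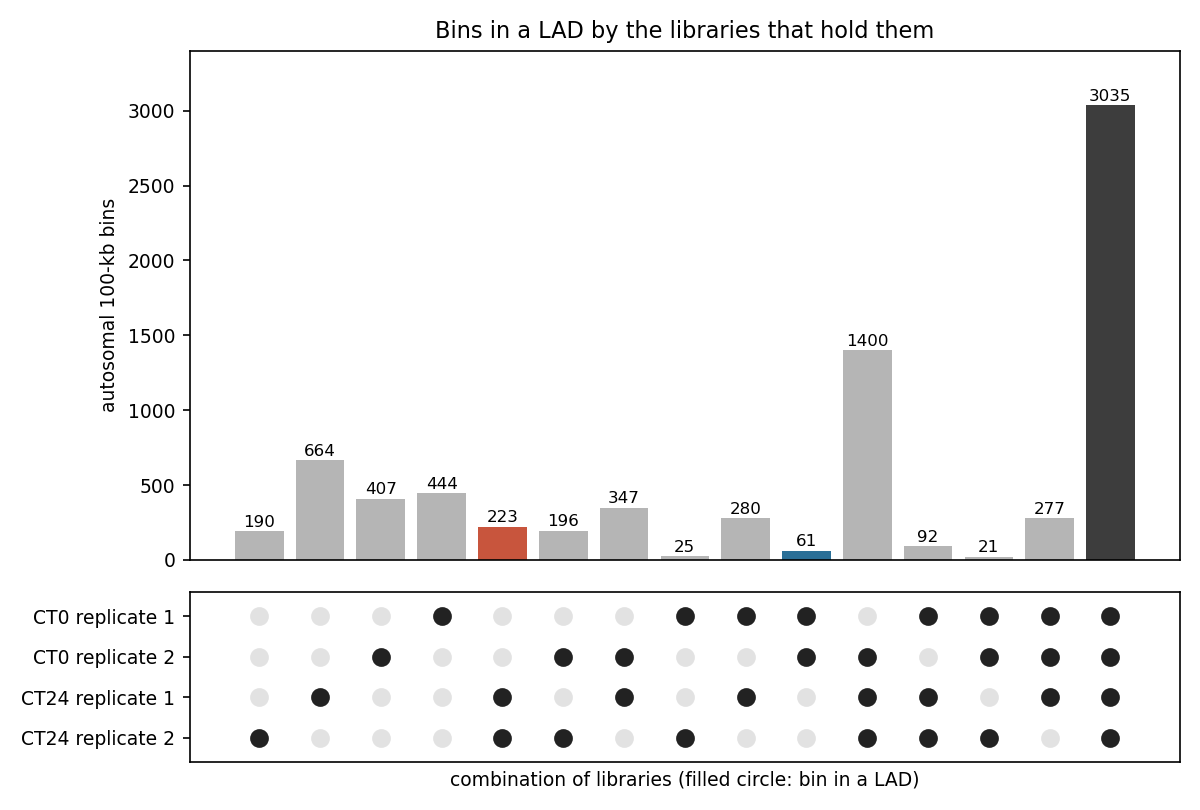
The bars give the number of autosomal 100-kb bins in a LAD for each combination of the 4 libraries, which the filled circles below the bars mark. The bins of both CT24 libraries alone (223, red) and of both CT0 libraries alone (61, blue) are few beside the 3035 bins of all 4 (black), and the next highest bar is that of the 1400 bins missing from CT0 replicate 1 only.

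Seen from each time point, 3394 bins were in a LAD in both CT0 libraries. Of these, 89.4% were also in a LAD in both CT24 libraries and 98.2% in at least 1. Of the 4750 bins in both CT24 libraries, 63.9% were in both CT0 libraries and 95.3% in at least 1. The 1492 bins of both CT24 libraries and exactly 1 CT0 library were thus more numerous than the 223 without CT0.

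Counts with 1 library left out are given as values, since fewer conditions can only raise them. Without CT0 replicate 2, 1623 bins were in both CT24 libraries and not in CT0 replicate 1. Leaving out CT24 replicate 2 gave 887 bins, leaving out CT24 replicate 1 gave 413 and leaving out CT0 replicate 1 gave 315. The 61 bins of CT0 became 505 without CT0 replicate 2, 468 without CT0 replicate 1, 338 without CT24 replicate 1 and 82 without CT24 replicate 2. The bins shared by the libraries that were kept ranged from 3056 to 4435, with 4435 when CT0 replicate 1 was left out.

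Most bins of the time-point classes were clear of the limit of 50 kb. Of the 223 bins of CT24, 180 had no base pair of a LAD in either CT0 library, 184 were covered over their whole length in both CT24 libraries and 146 met both conditions. Of the 61 bins of CT0, 53 had no base pair in a LAD at CT24, 47 were fully covered at CT0 and 43 met both conditions.

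The bins of CT24 formed 80 runs of consecutive bins, 0.2 Mb long in the median and 1.0 Mb at most, on 18 of the 19 autosomes. Each of the 80 runs touched a bin that was in a LAD in at least 1 CT0 library, 71 on 1 side and 9 on both sides. In 72 runs the neighbour was in a LAD of CT0 replicate 2 and in 14 in a LAD of CT0 replicate 1. The bins of CT0 formed 17 runs on 11 autosomes, 0.1 Mb long in the median and 1.6 Mb at most. Here 12 runs touched a LAD of CT24 on 1 side, and 5 runs with 36 bins touched none. The 3 longest of these runs held 36 of the 61 bins (59.0%), against 28 of 223 bins (12.6%) in the 3 longest runs of CT24. The shared bins formed 91 runs on all 19 autosomes, 2.6 Mb long in the median and 17.4 Mb at most.

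Chromosome 4 held 41 of the 223 bins of CT24 (18.4%) and chromosome 7 held 37 (16.6%), against 6.36% and 5.91% of all autosomal bins. Chromosome 15 held none of them, although 184 of its bins were shared by all 4 libraries. The bins of CT0 lay mostly on chromosome 9 with 17 bins, chromosome 3 with 16 and chromosome 13 with 11. These chromosomes hold 5.06%, 6.50% and 4.89% of all autosomal bins. The 16 bins of chromosome 3 formed 1 run, as did the 11 bins of chromosome 13.

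In base composition and gene content, both time-point classes lay between the shared bins and the bins outside LADs. The median GC content of a bin was 39.2% (quartiles 38.1 and 40.2%) in the bins of CT24, 38.5% (37.8 and 39.3%) in those of CT0 and 37.2% (36.5 and 38.0%) in the shared bins. It was 43.2% (40.9 and 45.8%) in the bins of none of the 4 libraries. On all 14 chromosomes with at least 5 bins of CT24, the median GC content of those bins was below the median of the chromosome. The same was seen on 4 of 4 chromosomes for the bins of CT0 and on 19 of 19 for the shared bins. Gene density was 5.52 protein-coding genes per Mb (123 gene records) in the bins of CT24, 3.28 (20) in those of CT0 and 2.44 (742) in the shared bins, against 10.7 in bins of none of the 4 and 8.45 in all autosomal bins. In the bins held by some other combination of the 4 libraries the values were 38.7% GC and 4.19 genes per Mb. The share of repeat-masked bases had a median of 38.7%, 37.4% and 41.9% in the bins of CT24, of CT0 and of all 4, and of 28.6% outside.

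**Figure D2:**
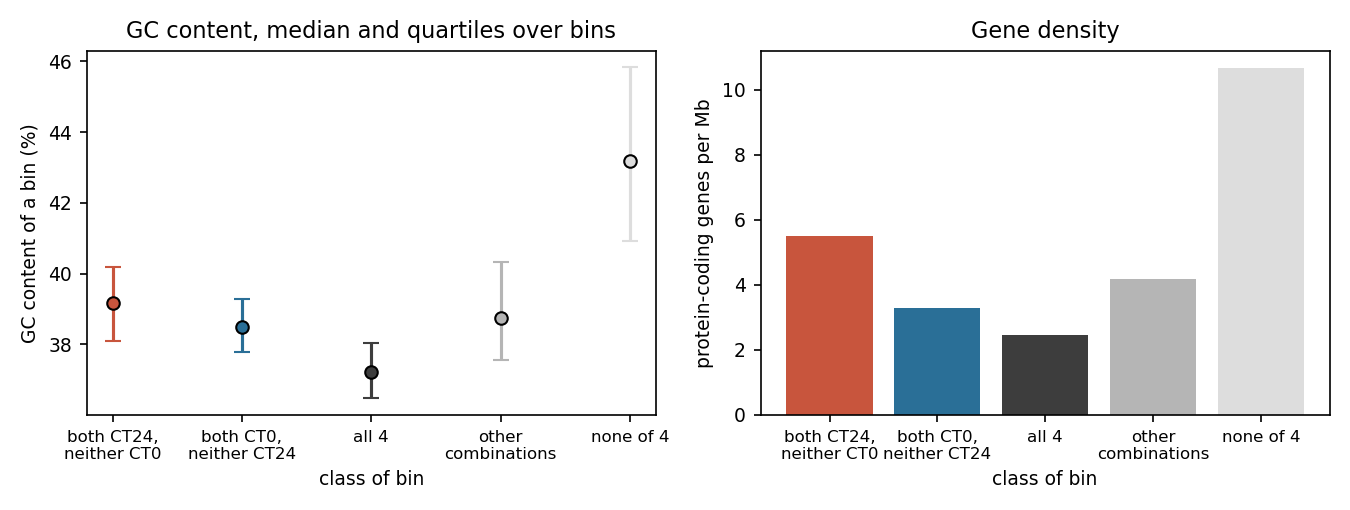
Left, the median GC content of the bins of each class in percent, with quartiles over bins as bars, on an axis that does not start at 0; right, protein-coding genes per Mb. The bins of both CT24 libraries and neither CT0 library (39.2% GC, 5.52 genes per Mb) and those of both CT0 libraries and neither CT24 library (38.5%, 3.28) sit between the bins of all 4 (37.2%, 2.44) and those of none (43.2%, 10.7).

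The 8 longest runs of CT24 held between 0 and 13 genes. The first spanned chromosome 4 from 75800001 to 76800000 and held no protein-coding gene. LADs covered 100% of it in both CT24 libraries, 4.9% in CT0 replicate 1 and 1.2% in CT0 replicate 2. Among the 10 libraries of other time points it was covered over more than 50% of its length in CT18 replicate 1 alone, at 100%. A second desert on the same chromosome, from 35600001 to 36200000, was covered at 100% in both CT24 libraries, 0% in CT0 replicate 1 and 7.33% in CT0 replicate 2.

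The run on chromosome 13 from 61600001 to 62600000 held 5 genes, among them the zinc finger genes Zfp808, Zfp935 and Zfp934. Genes of this kind mostly encode DNA-binding repressors that act on repeated elements. LADs covered 100% of the run in CT24 replicate 1 and 95.0% in CT24 replicate 2, against 0% in both CT0 libraries. At CT30 the cover was 98.9% and 82.2%, so that this run stayed in a LAD 6 h past CT24. At CT6, CT12 and CT18 the replicates ranged from 0% to 84.8%. Of the 2 CT6 libraries, 1 had no cover and the other 84.7%, and the CT18 libraries had 0% and 84.8%.

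The run on chromosome 4 from 73600001 to 74400000 held 13 genes, among them Frmd3, Kdm4c, which encodes a histone H3 lysine demethylase, and Rasef, which encodes a RAB family GTPase with EF-hand domains. It was covered at 100% in both CT24 libraries, at 0% in CT0 replicate 1 and at 2.0% in CT0 replicate 2. The cover was 71.9% and 100% at CT12 and 100% and 63.8% at CT18, and 0% in both libraries at CT30. The run was thus in a LAD in both libraries of CT12 and CT18 as well as of CT24.

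Vegfc, which encodes a growth factor of lymphatic vessels, Neil3, a DNA glycosylase gene, and Aga, which encodes the lysosomal enzyme aspartylglucosaminidase, lay in the run on chromosome 8 from 53400001 to 54100000. LADs covered 100% of this run in both CT24 libraries, 5.57% in CT0 replicate 1 and 6.86% in CT0 replicate 2. Both CT12 libraries also held it, with 100% and 94.3%, whereas the replicates differed at CT6 (100% and 14.9%) and CT18 (100% and 10.3%). The NS replicates, from mice not synchronized by the fast, had 92.3% and 13.7%, and both CT30 libraries had 0%. Pros1, which encodes the anticoagulant protein S, Nsun3, an RNA methyltransferase gene, and Arl13b, which encodes a GTPase of the primary cilium, lay in the run on chromosome 16 from 62500001 to 63200000. It was covered at 100% in both CT24 and at 0% in both CT0 libraries, and also at 100% in both CT6 libraries, NS replicate 1, CT18 replicate 1 and CT30 replicate 1.

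The remaining long runs of CT24 lay on chromosome 7. The run from 62900001 to 63600000 held Otud7a, a deubiquitinase gene, and Chrna7, which encodes a nicotinic acetylcholine receptor subunit. Its cover was 96.3% and 100% at CT24, 0% and 0.571% at CT0, 100% in both CT18 libraries and 0% in both CT30 libraries. The run from 50400001 to 51100000 held 1 gene, which the rule for naming leaves out, and was covered at 100% in both CT24 libraries, 0% in both CT0 libraries and 100% in CT12 replicate 2. Of the 8 longest runs of CT24, 1 to 5 of the 10 libraries of other time points covered each over at least 50% of its length.

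The longest run of CT0 held Negr1, on chromosome 3 from 155100001 to 156700000. The transcription start site (TSS) of Negr1 lies at 156561794, and the gene body runs on past the run to 157316445. LADs covered 100% of the run in CT0 replicate 1 and 94.2% in CT0 replicate 2, and 0% in both CT24 libraries. The run was also covered at CT6 (100% and 85.2%), CT12 (95.0% and 91.2%) and CT18 (100% and 94.4%), and in the NS replicates (100% and 63.2%). Both CT30 libraries were at 0%. Of the 10 libraries that the choice of the run did not use, the 8 from NS, CT6, CT12 and CT18 thus covered at least 63.2% of it and the 2 of CT30 none.

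The run on chromosome 13 from 115200001 to 116300000 held no gene. It was covered at 96.0% and 98.2% at CT0, 98.6% and 97.3% at CT12, 60.5% and 60.2% at CT18, and 0% in all 4 libraries of CT24 and CT30. Its cover was 47.3% and 0% at CT6 and 0% and 58.5% in the NS replicates. On chromosome 9, the run from 35800001 to 36700000 held Acrv1 and 8 further genes, and 57.7% of its bases are repeat-masked. It was covered at 98.4% and 100% at CT0 and 0% in both CT24 libraries, whereas CT30 replicate 1 had 100% and CT30 replicate 2 had 0%. The cover was 95.9% or more in both CT12 and both CT18 libraries, NS replicate 2 and CT6 replicate 2. NS replicate 1 and CT6 replicate 1 had 0%.

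Pcsk2, which encodes the prohormone convertase PC2 of endocrine and neuronal cells, lay in the run on chromosome 2 from 143200001 to 143600000. The cover was 100% and 91.0% at CT0 and 0% in both CT24 libraries, and of the other libraries only NS replicate 1, CT6 replicate 2 and CT18 replicate 2 covered it over at least 50%. Mmp12, which encodes macrophage elastase, lay with Dync2h1, a gene of ciliary transport, and Dcun1d5 in the run on chromosome 9 from 7000001 to 7400000. It was covered at 100% and 98.0% at CT0 and at 0% in both CT24 libraries, and also at 100% in CT6 replicate 1 and CT18 replicate 1. The other 3 of the 8 longest runs, on chromosomes 8, 9 and 18, were 0.3, 0.2 and 0.3 Mb long and held no gene.

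The 5 longest runs shared by all 4 libraries held 2 to 7 genes each over 7.6 to 17.4 Mb. On chromosome 14 from 80500001 to 97900000, 17.4 Mb were shared, with 7 genes, among them Pcdh9, Diaph3, a formin gene, and Klhl1. LADs covered 100% of it in both CT0 libraries and in CT24 replicate 1, and 99.8% in CT24 replicate 2. At CT30 its cover was 46.2% and 39.7%, and in NS replicate 1 it was 25.4%, so that even this run was not held at every time point. On chromosome 15, the run from 13700001 to 25000000 held the classical type II cadherin genes Cdh12, Cdh18 and Cdh10, which encode calcium-dependent adhesion proteins, and was covered at 96.2% or more in all 14 libraries. The run on chromosome 1 from 108600001 to 117800000 with Cntnap5a, Cdh7 and Cdh19 and the run on chromosome 5 from 54800001 to 62500000 with Pcdh7 and G6pd2 were covered at 90.3% or more and 96.8% or more in each of the 14. On the same chromosome, the run from 78200001 to 85800000, with Adgrl3, Epha5 and Tecrl, was covered at 99.6% or more in the 4 libraries but at 39.0% in NS replicate 1.

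**Figure D3:**
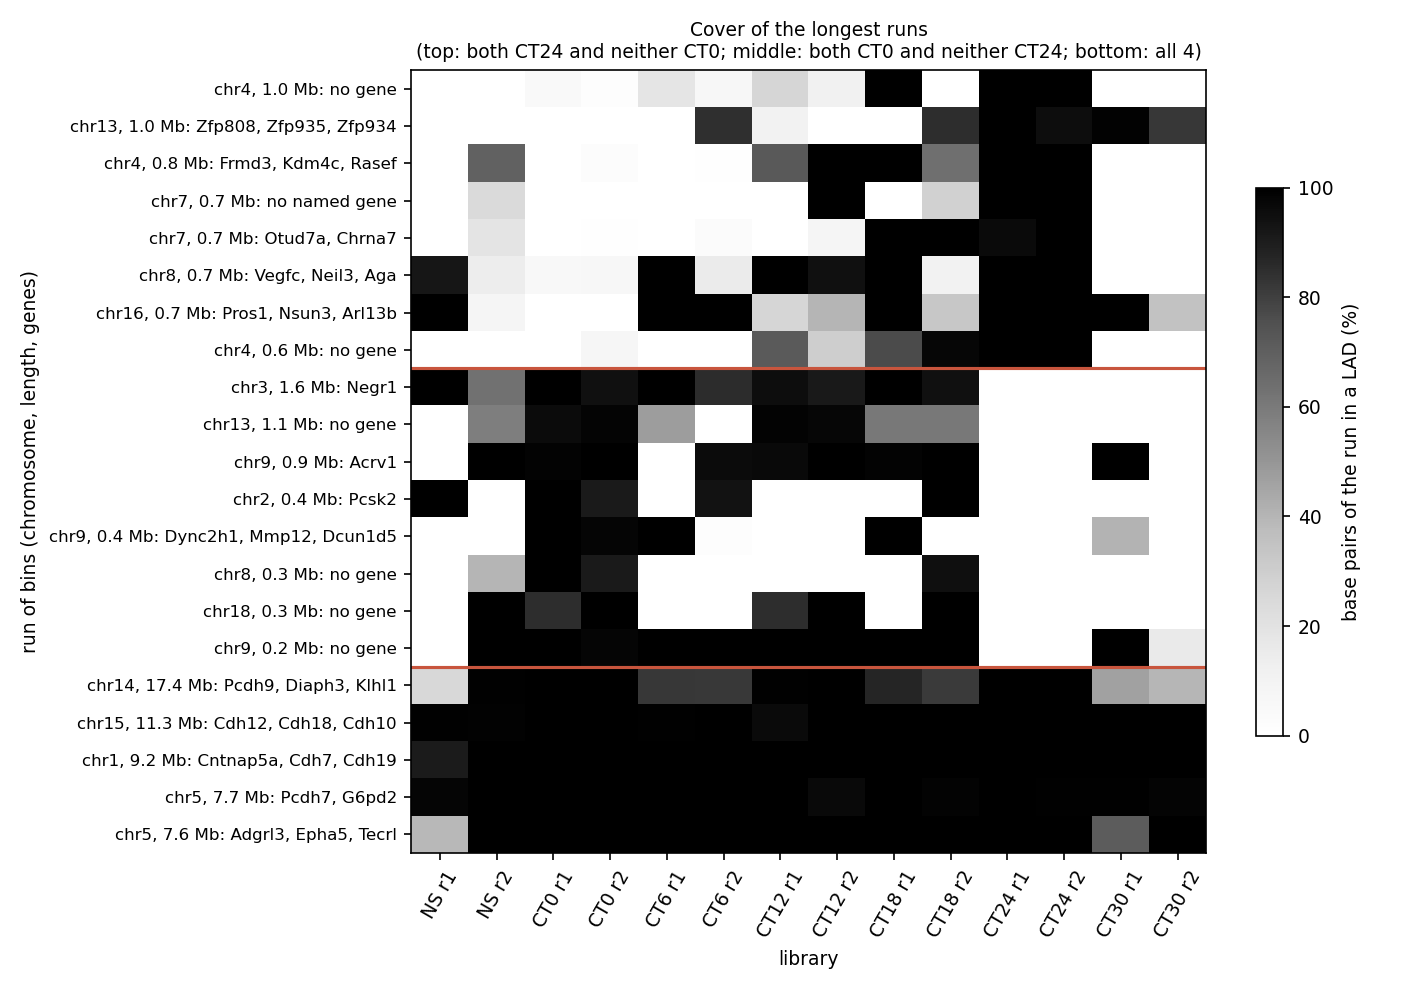
Each row is a run of consecutive bins and each column a library, with the share of base pairs of the run in a LAD in percent as the shade from white (0) to black (100). The upper 8 rows are the longest runs of both CT24 libraries and neither CT0 library, the middle 8 those of both CT0 libraries and neither CT24 library and the lower 5 those of all 4. The Negr1 row is dark in every library up to CT18 and white at CT24 and CT30.

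The other time points were not used to form the classes, and they placed both between the shared bins and the bins outside LADs. Of the 223 bins of CT24, the share in a LAD was 35.0% and 42.2% in the CT6 libraries, 40.8% and 46.6% at CT12, 65.9% and 52.0% at CT18 and 30.0% and 18.4% at CT30. In the NS libraries it was 20.2% and 26.9%. The CT18 libraries, 6 h before CT24, thus held more of these bins than any other library outside the comparison. The bins of CT0 were in a LAD at 57.4% and 55.7% at CT6, 68.9% and 75.4% at CT12, 68.9% and 80.3% at CT18, and 27.9% and 4.92% at CT30. More than 50% of them were thus in a LAD in each of the 6 libraries between the compared time points. The total autosomal coverage moved in the same way, with 617.9 and 651.6 Mb at CT18, the latter the highest of the 14 libraries, and 395.1 and 388.1 Mb at CT30, the lowest but for NS replicate 1. Its part in these shares was not tested. In the bins of other combinations of the 4 libraries the shares were also highest at CT18 and lowest at CT30 among these 8 libraries, as the plot of shares by time point shows.

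**Figure D4:**
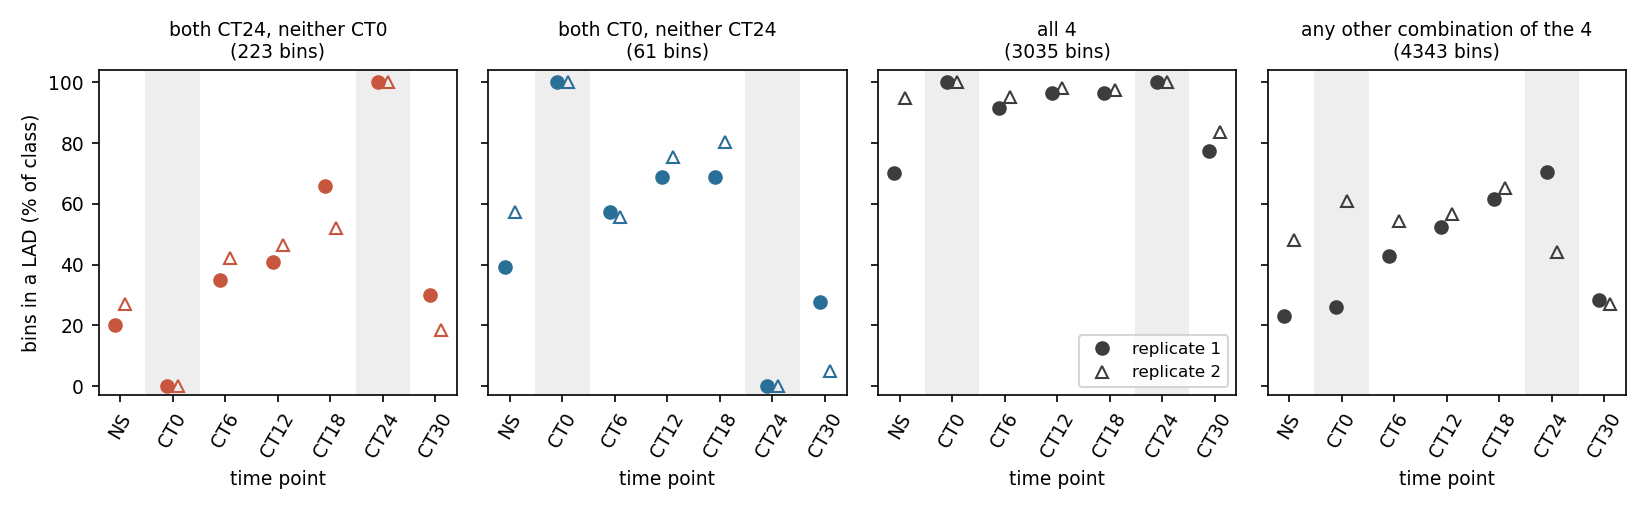
The vertical axis gives the percent of the bins of a class that were in a LAD in each library (circle, replicate 1; open triangle, replicate 2), and the horizontal axis the time point; the grey bands mark CT0 and CT24, whose values the first 3 classes fix at 0 or 100%. The bins of CT24 reach 65.9% and 52.0% at CT18, the bins of CT0 are above 50% from CT6 to CT18, and the bins of all 4 lie between 70.3% and 98.2% elsewhere.

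Of the 8 libraries at CT6, CT12, CT18 and CT30, a bin of CT24 was in a LAD in a median of 3 and a bin of CT0 in a median of 5. Among the bins of CT24, 13 of 223 were in a LAD in none of the 8 and 10 in all 8. No bin of CT0 was in none of the 8 or in all 8. Of the shared bins, 1972 of 3035 (65.0%) were in a LAD in all 8, and 1499 (49.4%) also in both NS libraries.

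A rhythm of 24 h alone would keep a bin at CT0 and CT24 and change it in between. Few bins showed this in both replicates, but each count needs the replicates to agree. Of the bins at CT0, 3394 were in a LAD in both libraries and 3191 in a single library. CT0 mice were also fasted and CT24 mice refed, so that a rhythmic bin need not be the same at both. The counts expected with and without a rhythm were not computed, so whether bins follow a rhythm of 24 h was not tested. In a LAD in all 4 libraries and in neither CT12 library, 12 h from both, were 25 bins, or 0.101% of the autosomal bins. The opposite pattern, none of the 4 and both CT12 libraries, was seen in 52 bins (0.211%). Against CT6 the counts were 78 and 74, and against CT18 10 and 115. Only 6 bins were in none of the 4 libraries and in both libraries of each of CT6, CT12 and CT18. At CT30, 6 h past CT24, 292 shared bins were in neither library. By contrast, 2898 of the 3035 shared bins (95.5%) were also in both CT12 libraries.

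Among the 15 pairs of time points from CT0 to CT30, the pair of CT0 and CT24 did not stand out in its overlap. Its mean Jaccard index of 0.627 between libraries ranked eighth and its 39.6% of bins shared by all 4 ranked ninth. With the CT24 libraries the index was 0.537 and 0.508 for CT0 replicate 1 and 0.722 and 0.742 for CT0 replicate 2. The CT0 libraries had an index of 0.516 with each other. CT12 and CT24, 12 h apart, ranked first in both with an index of 0.724 and 56.3%. CT6 and CT30, the other pair 24 h apart, had 0.586 and 39.9%, and CT0 and CT30 had the lowest index, 0.520. Bins in both libraries of 1 time point and neither of the other made up 3.71% of the bins in any library of the pair for CT0 and CT24. Only CT0 and CT12 had a lower share, 3.46%, and CT12 and CT30 had the highest, 20.3%. This share counts only bins on which the replicates of each time point agree. At CT0, 3191 bins were in a LAD in a single library, against 3394 in both. The pairs share libraries, and the values are given side by side without a test.

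Genes were placed by the bin of their TSS, over 20780 autosomal protein-coding gene symbols. Of these, 123 (0.592%) lay in the bins of CT24, 20 (0.0962%) in the bins of CT0 and 741 (3.57%) in the shared bins, while 87.0% lay in none of the 4. The genes of the clock were nearly all outside LADs at both time points. Of 22 core clock genes, 0 lay in a bin of CT24 or of CT0, 21 lay in none of the 4 and Rorb, which encodes a nuclear receptor that is mainly neural, lay in a shared bin. The bin of the Rorb TSS was covered over 100 kb in each of the 4 libraries.

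The distance of clock genes to the nearest LAD in the 4 libraries is given without that of all genes, which was not computed. Apart from Rorb, 19 genes were more than 1 Mb from a LAD in each of the 4, and the exceptions were Hlf and Bhlhe40. Hlf, a gene of the PAR bZIP output factors, was 0.0841 and 0.409 Mb from a LAD in the CT0 libraries and 0.00711 and 0.905 Mb in the CT24 libraries. Bhlhe40, which encodes the repressor DEC1, was at 0.608 and 0.955 Mb at CT0 and at 0.441 and 0.959 Mb at CT24. For both genes the values of CT24 lay on either side of those of CT0. The median distance over the 22 genes was 8.58 and 4.35 Mb in the CT0 libraries and 5.98 and 6.58 Mb in the CT24 libraries, so that the CT24 values lay between those of CT0.

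Arntl was 16.4 and 4.36 Mb from a LAD at CT0 and 7.86 and 4.38 Mb at CT24. Clock was at 1.25 and 1.61 Mb at CT0 and at 1.40 and 1.92 Mb at CT24. Npas2, a paralog of Clock, was at 6.11 and 5.46 Mb and then at 1.63 and 5.14 Mb. Among the repressors, Per1 was at 1.65 and 4.34 Mb at CT0 and at 2.245 and 21.0 Mb at CT24, Per2 at 16.6 and 2.81 Mb and then at 2.68 and 2.66 Mb, and Per3 at 38.2 and 3.25 Mb and then at 3.25 and 3.23 Mb. Cry1 was at 10.4 and 10.9 Mb at CT0 and at 10.3 and 11.5 Mb at CT24, and Cry2 stayed between 2.01 and 2.26 Mb in the 4 libraries. At Per2, Per3 and Arntl the large value was that of CT0 replicate 1, the library with the fewest LADs.

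Nr1d1, which encodes the repressor REV-ERB alpha, was between 4.91 and 5.66 Mb from a LAD in the 4 libraries, and its paralog Nr1d2 between 11.1 and 61.5 Mb. Rora, which encodes an activator that competes with them, was between 7.39 and 12.0 Mb. The output genes Dbp, Tef and Nfil3 were at 2.09 to 6.75 Mb, 4.49 to 10.2 Mb and 7.90 to 16.9 Mb. Bhlhe41, Ciart and the casein kinase genes Csnk1d and Csnk1e were at 6.37 to 33.7 Mb, 4.27 to 28.3 Mb, 8.80 to 27.9 Mb and 6.56 to 7.86 Mb.

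Most genes of the liver lists lay in none of the 4 libraries, as did 87.0% of all genes. All 99 cytochrome P450 genes, which encode oxidases of drugs and steroids, lay in none of the 4. So did all 22 major urinary protein genes and all 60 serpin genes, a family that includes protease inhibitors of plasma. The same held for 51 of 52 plasma protein genes, with Ttpa in CT24 replicate 1 only, and for 39 of 40 genes of fasting and refeeding, with Ppargc1a in CT24 replicate 2 only. Ppargc1a encodes a coactivator of gluconeogenesis, and the bin of its TSS was covered over 88 kb in that library and 0 kb in the other 13. All 17 autosomal genes of the nuclear lamina and envelope and 77 of 78 ribosomal protein genes also lay in none of the 4. Of the 61 transferase genes of conjugation, 52 (85.2%) lay in none of the 4 and 8 (13.1%) in some other combination, against 8.74% of all genes. Sult3a2, a sulfotransferase gene, was the only one in a bin of CT24, with 82 and 100 kb of its bin covered at CT24 and 0 kb at CT0. It was also covered over 100 kb in CT6 replicate 1 and CT12 replicate 2.

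The 8 hepatocyte genes and the 3 genes each of Kupffer cells, endothelial cells, stellate cells and cholangiocytes that were placed lay in none of the 4, as did 87.0% of all genes. Of 240 autosomal genes that the study lists with 24 h periodic transcripts, 238 lay in none of the 4, and Hcrtr2 and Cobl in 2 and 3 libraries. None lay in a bin of CT24 or of CT0, where 0.592% and 0.0962% of all genes lay.

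The lists of receptor, adhesion and channel genes are given beside the 3.57% of all genes in shared bins, 0.592% in the bins of CT24 and 0.0962% in the bins of CT0. Of 1127 olfactory receptor genes, 402 (35.7%) lay in shared bins, 16 (1.42%) in the bins of CT24 and 3 (0.266%) in those of CT0. Olfr1444, Olfr1445 and Olfr1446, neighbours on chromosome 19, were the 3. Their shared bin was covered over 69 and 84 kb at CT0. It was covered over 48 kb in both CT24 libraries, just under the limit of 50 kb. Of the 16 genes in the bins of CT24, 4 shared 1 bin that was covered over 50 and 90 kb at CT24. Of 326 vomeronasal receptor genes, 61 (18.7%) lay in shared bins, 8 (2.45%) in the bins of CT24 and 0 in those of CT0. Of the 13 type II cadherin genes 8 lay in shared bins and 0 in either time-point class. Of 41 GABA and glutamate receptor genes 13 lay in shared bins, of 66 protocadherin genes 5 (7.58%) and of 79 potassium channel genes 3 (3.80%, near the share of all genes), and none of these families had a member in a time-point class. The 110 keratin and keratin-associated genes had 10 members in a LAD in CT0 replicate 2 alone and the other 100 in none of the 4. CT0 replicate 2 alone held 1.65% of all autosomal bins. Neighbouring genes of a family share bins and are not independent of each other.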

How the data were processed

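LMNB1 ChIP-seq LADs of the 14 liver libraries were used as the authors deposited them, as start and end coordinates on mm10. No score, signal or read count is given per LAD, so the read depth is unknown, counting error cannot be given and the precision rests on 2 mice per time point. The authors had mapped the reads with Bowtie2 (2.25.0 in the submitters' processing notes), removed duplicates with Picard, brought ChIP and input of each chromosome to the same depth, and called LADs per mouse with EDD, its GapPenalty and BinSize averaged over 10 runs. Inputs, RNA-seq and other assays were not analysed here.

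Autosomes of GRCm38.p6 were cut into 24639 bins of 100 kb. A bin with at least 50 kb covered was in a LAD. Protein-coding genes of GENCODE vM21 were placed by their TSS, as gene records for densities and as symbols for lists. Of the 252 genes in the study's list with 24 h periodic transcripts, 240 matched on autosomes. This list and its periodicity come from RNA-seq of the same study. GC content and repeat-masked bases were computed on the 23987 bins with at least 50 kb of called sequence. Named regions are the 8 longest runs of each time-point class and the 5 longest shared runs, each with up to 3 of its longest genes, without receptor, Gm and Rik names. Clock genes are named, and so are list members in a class with 5 or fewer of them, apart from some that are not reported here. Bins and lists were chosen with earlier results of these data known.

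Coverage, number and log2 median size of LADs were compared with exact two-sided permutation tests of 2 libraries against 2, and Jaccard indices with an exact one-sided permutation test over the 3 pairings. Counts of bins have no test. The scripts (Python 3.11.15, NumPy 2.4.6, pandas 2.3.3) were tested on simulated intervals. Alternatives were 25 and 75 kb of cover, bins of 50 and 200 kb, base pairs in place of bins, LADs of at least 1 Mb, all chromosomes, mean in place of median size, a replicate block and leaving out each library. Mice with the same replicate number were killed at different times and do not form pairs.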

Additional observations from a re-analysis of the deposited data

Results flagged for a closer look

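LADs on chromosome Y were not used in the comparison. CT24 replicate 2 held 7 of them over 20.1 Mb, while CT24 replicate 1 and both CT0 libraries held 0. Elsewhere CT18 replicate 2 held 5, over 3.13 Mb, and CT6 replicate 2 held 1, over 0.935 Mb, and the other libraries held 0. These 3 libraries carry the number 2 in the deposited names, as do CT12 replicate 2 and CT30 replicate 2, which held 0. The cause was not tested.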

How the results depend on the processing

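Of 58 alternative values, 48 kept their direction or, for counts, stayed within 1.5 times. Another 6 counts moved further and 4 differences reversed. No p below 0.333 was possible, so the side of the threshold could not change and was not compared. A replicate block leaves the differences in coverage, number and log2 size as they are, so these values kept their direction by construction. With LADs of at least 1 Mb the difference in number between CT24 and CT0 turned to 32 and that in log2 median size to -0.11. Without CT0 replicate 2 they turned to 71.5 and -0.40. Leaving out 1 library at a time gave differences of 1.075 to 151.0 Mb in coverage, -102.5 to 71.5 in number and -0.40 to 0.94 in log2 size. The bins of CT24 then numbered 315 to 1623, those of CT0 82 to 505 and the shared bins 3056 to 4435, with the highest counts without CT0 replicate 2 for the first 2 and without CT0 replicate 1 for the shared bins. These counts rise by construction, as fewer libraries have to meet the condition. Under the other alternatives the bins of CT24 numbered 220 to 303, those of CT0 45 to 63 and the shared bins 2980 to 3076, in units of 100 kb. The Jaccard difference ranged from -0.0175 to -0.00883, with no p below 0.333 possible. With the replicate number as a block the differences in coverage (76.0 Mb), number (-15.5) and log2 size (0.27) had an exact sign-flip p of 1. Over the 24639 bins the replicate differences of CT0 and CT24 had a correlation of 0.0762, and the numbers do not pair the mice. The block was applied to coverage, number and log2 size only. With 2 mice per time point, no read depth and no score per LAD, a bin has no error of its own.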

Other observations

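A cluster of Trim genes, chosen after its values were seen, lay in a run of CT24 on chromosome 7 from 104100001 to 104600000. The run held 22 genes, among them 8 olfactory receptor genes and 10 of the 68 autosomal Trim genes, such as Trim5, Trim30a and Trim30d, a family known for antiviral and immune functions. LADs covered 100% of it in both CT24 libraries and in CT18 replicate 1, 0% in CT0 replicate 1, 5.6% in CT0 replicate 2, 36.4% in CT18 replicate 2 and at most 28.8% in the other libraries. Of all autosomal protein-coding genes, 0.592% lay in the bins of CT24. The 10 Trim genes are neighbours in 1 run and not independent of each other.

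Parts of some gene families were in a LAD in a single library of the 4, and neighbouring genes share bins. CT24 replicate 1 alone held 2.69% of all autosomal bins. Of the 66 protocadherin genes, 5 lay in shared bins and 27 in none of the 4. The 32 clustered protocadherin genes in a LAD, of the alpha and beta clusters on chromosome 18 that encode neuronal surface proteins, were in a LAD in CT24 replicate 1 and in none of the other 3. The sulfotransferase genes Sult1b1, Sult1d1 and Sult1e1 were in a LAD in CT0 replicate 2 alone, with 52 kb of their bin covered, close to the limit of 50 kb. Sult3a2, of the same family, was in both CT24 libraries and in neither CT0 library.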
